A study of Mus musculus with 3 samples.

Results

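The genes described here are 34 targets and regulators of NRF2 and enzymes of the antioxidant system, taken from a list of symbols and followed in the cytosolic RNA of restimulated mouse macrophages. Every symbol matched exactly 1 gene, so the 34 genes stood for 34 of the 55536 genes in the deposited tables. The rule used no measured value. The series held 3 RNA sequencing libraries, given as biological replicates 1, 2 and 3, and all belong to 1 group. Macrophages derived from bone marrow of the C57BL/6J strain, phagocytes grown in culture, received Lipid A, the part of bacterial endotoxin sensed by TLR4, at 100 ng/ml for 12 h. Wash-out for 12 h followed, and a last exposure at 100 ng/ml for 50 min preceded harvest. Ribosomal RNA was depleted from total RNA of the cytosolic fraction, with 1 µg of input and fragments of 250 to 400 bases. All libraries carry 1 donor entry at the level of the strain, age and sex were not collected, and p-values measure only the spread between these samples, which may be technical. No untreated, once-treated or nuclear library was analysed here, so the levels below are those of restimulated cells and carry no measure of induction.

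NRF2, encoded by Nfe2l2, is a basic leucine zipper factor that KEAP1 holds in the cytosol and hands to a CUL3 ubiquitin ligase for degradation. Oxidants and electrophiles modify cysteines of KEAP1, after which NRF2 accumulates, pairs with a small MAF protein and binds antioxidant response elements, where BACH1 acts as a repressor. Its targets supply glutathione and thioredoxin, which pass electrons to the enzymes that remove peroxides, and in macrophages they meet the oxidants made during inflammatory activation.

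Replicates 1, 2 and 3 held 47972062, 54409436 and 53491957 expected counts on genes. A gene with no count may still stand at up to 0.0625, 0.0551 and 0.0561 counts per 1000000 (CPM), a limit for counting error only. The short cytosolic RNA 7SL took 55.0 to 64.0% of all transcripts per 1000000 (TPM, a share corrected for length), most in replicate 2, and protein-coding genes took 26.1 to 37.0%, least in replicate 2. TPM was lowest in replicate 2 for 80% of the genes tested. Replicates are compared below in CPM on library sizes scaled by the trimmed mean of M values (TMM), while genes are compared with each other in TPM within a library. The nuclear RNA Malat1 stood at 6066, 3077 and 1408 CPM in replicates 1, 2 and 3, and mitochondrial genes took 0.580, 0.356 and 0.140% of counts. Of 10 macrophage markers all 10 were at TPM 1 or above in every replicate, with a summed TPM of 6400 to 8365. That limit was met by 4 of 10 neutrophil markers (summed TPM 40.9 to 53.8), 1 of 10 T and NK cell markers (12.4 to 19.2), 1 of 7 erythroid and platelet markers (76.8 to 126) and 2 of 6 endothelial markers (4.61 to 19.2). It was met by 1 of 6 dendritic cell markers (1.63 to 1.93), 0 of 6 B cell markers (1.30 to 2.49), 0 of 6 mast cell markers (0.27 to 0.43) and 0 of 7 stromal markers (0.03 to 0.13). Ly6g, Cd3g, Trac, Gzma, Pdgfra and Lum were at TPM 0 in every library. The part of other cells and of nuclear RNA in the differences between replicates was not tested. In bulk RNA, fewer cells that express a gene and less RNA per cell cannot be told apart.

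The antioxidant response element is the sequence through which NRF2 acts, so RefSeq promoters (GRCm38.p6, 250 bases before to 50 after a start site) were searched on both strands for its core, TGACNNNGC. Of 34 genes 30 matched a promoter entry, and 9 of those 30 (30%) held the core, beside 14% of 27025 genes with a promoter entry. The 9 were Nfe2l2, Mafg, Mafk, Gclm, Txnrd1, Srxn1, Prdx1, Sod1 and Mgst1. They span mean levels from TPM 9.00 (Mafk) to 381 (Prdx1). Counted over promoters, 9 of 42 entries of the list held it, against 12.4% of 32851. A match says only that these letters stand in the window, and binding was not measured. Sod3, Gclc, Gsr and Prdx6 had no promoter entry and were not searched, and no gene was searched outside its windows. The windows of all 9 are printed so that the matched letters can be seen beside the levels of these genes, with the core in capitals, 5′ to 3′ on the strand that carries it. Nfe2l2 stands on the minus strand of chr2:75704887-75704911, Srxn1 on the minus strand of chr2:152105544-152105568, Gclm on the minus strand of chr3:122245415-122245439, Prdx1 on the minus strand of chr4:116685458-116685482 and Mafk on the minus strand of chr5:139791515-139791539. Mgst1 stands on the minus strand of chr6:138140463-138140487, Txnrd1 on the minus strand of chr10:82859106-82859130, Mafg on the plus strand of chr11:120633753-120633777 and Sod1 on the minus strand of chr16:90220698-90220722.
Nfe2l2: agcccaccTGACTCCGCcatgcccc
Srxn1: tctcactcTGACCTAGCtgcccact
Gclm: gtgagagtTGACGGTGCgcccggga
Prdx1: acgggggaTGACTCAGCgctttccc
Mafk: cccagtacTGACACCGCttccggga
Mgst1: ccgcctccTGACCGTGCcaagcccc
Txnrd1: tgtcagaaTGACAAAGCaaaaatcc
Mafg: cgccgggtTGACCGTGCtcctgcag
Sod1: cctgagtcTGACCACGCccaccttg

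The core in Prdx1 overlaps a match to TGANTCA, the letters bound by AP-1. This 7-letter motif was found in promoters of 3 of the 30 genes, Srxn1, Prdx1 and Glrx, beside 8.97% of all genes with an entry. The Txnrd1 window belongs to a start inside the annotated gene, which begins at chr10:82833951.

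Several members are selenoproteins, in which the stop triplet TGA is read as selenocysteine at the catalytic site. The annotation (GENCODE M21, mm10) marks such a codon in Gpx1, Gpx3, Gpx4, Txnrd1 and Txnrd2, and it is printed in capitals in the coding sequence, 24 bases before it and 6 after it, because it is what these 5 enzymes share beyond their place in the list. All 5 lie on the plus strand, with the codon at chr9:108339451-108339453 in Gpx1, chr11:54907256-54907258 in Gpx3, chr10:80054737-80054739 in Gpx4, chr10:82896037-82896039 in Txnrd1 and chr16:18477772-18477774 in Txnrd2.
Gpx1: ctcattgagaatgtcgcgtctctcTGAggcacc
Gpx3: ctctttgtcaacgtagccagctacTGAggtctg
Gpx4: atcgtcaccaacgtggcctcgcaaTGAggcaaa
Txnrd1: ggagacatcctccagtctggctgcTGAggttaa
Txnrd2: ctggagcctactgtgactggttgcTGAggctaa

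In both thioredoxin reductases the stop codon follows 1 codon after the selenocysteine, at the very end of the protein. In the glutathione peroxidases no stop follows there. Their levels covered most of the range of the list, from a mean TPM of 297 for Gpx1 to 4.11 for Txnrd2.

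Peroxide-removing enzymes led the list, and the cystine transporter Slc7a11, the quinone reductase Nqo1 and, lowest, extracellular Sod3 stood at its foot. Expression, set at TPM 1 or above in every replicate, was met by 31 of the 34 genes, beside 17.2% of all genes. The median gene of the list stood at TPM 29.1, and the median of 9059 expressed protein-coding genes stood at 9.20. The list took 0.782, 0.747 and 0.747% of protein-coding TPM in replicates 1, 2 and 3. Slc7a11, Nqo1 and Sod3 missed the limit. That count depended on the scale, because 7SL takes a large part of TPM. On TPM rescaled to protein-coding genes 33 of the 34 met it. There Slc7a11 stood at 14.6, 1.99 and 3.16 and Nqo1 at 1.44, 1.65 and 1.19 in replicates 1, 2 and 3, and Sod3 stayed at 0. When the genes were ordered by mean TPM, 8 of 33 neighbouring pairs kept their order in every replicate, so most close neighbours in the order did not differ beyond the spread between replicates.

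**Figure D1:**
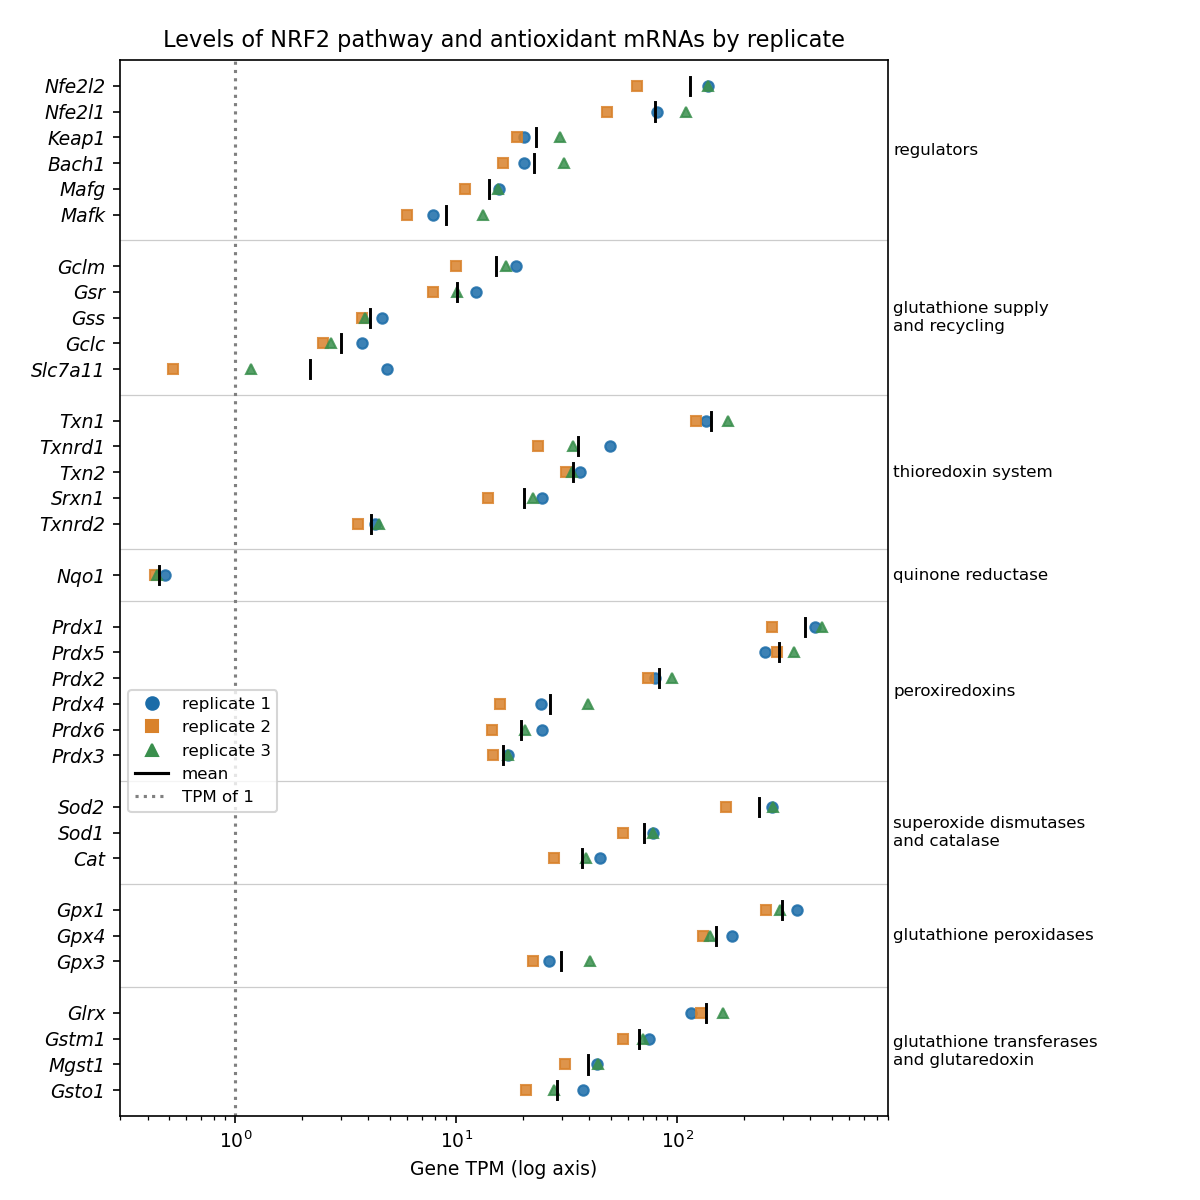
Gene TPM on a log axis for 33 genes of the list by replicate, grouped by role, with the mean of the 3 replicates as a bar and TPM 1 dotted; Sod3, listed at TPM 0, is not drawn. Prdx1 stands highest at a mean of 381, Nqo1 stands at 0.45, and replicate 2 is the lowest of the 3 for most genes on this scale.

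Among the regulators Nfe2l2 was the highest and Mafk the lowest. Nfe2l2, on the minus strand of chr2:75675513-75704641, stood at TPM 138, 65.9 and 138 in replicates 1, 2 and 3 (114 ± 41.7, SD, n = 3). Its CPM was 428, 273 and 420, so replicate 2 was low and the others were close. Nfe2l1, which encodes a related factor known for inducing proteasome genes, stood at TPM 81.2, 48.2 and 110.

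Keap1, the sensor that restrains NRF2, was present at TPM 20.3, 18.8 and 29.5. Its CPM was 82.6, 103 and 117, lowest in replicate 1 and highest in replicate 3. Bach1, the haem-sensitive repressor that competes for the same elements, stood at TPM 20.3, 16.3 and 30.6. Its CPM was 161, 171 and 234, with replicate 3 high. Within each library Nfe2l2 exceeded both. The difference in log2(TPM + 1) was 2.71, 1.76 and 2.19 against Keap1 (mean 2.22 ± 0.48, SD, n = 3) and 2.71, 1.95 and 2.13 against Bach1 (mean 2.26 ± 0.40). Against Nfe2l1 the difference was 0.76, 0.44 and 0.32 (mean 0.51 ± 0.23), positive in 3 of 3 libraries but small beside the others.

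Small MAF proteins are the partners without which NRF2 does not bind its elements. Mafg stood at TPM 15.5, 11.0 and 15.4 and Mafk at 7.80, 5.97 and 13.2. The log2(TPM + 1) difference, Mafg minus Mafk, was 0.91, 0.78 and 0.21 (mean 0.63 ± 0.37, SD, n = 3), so the 2 genes came close in replicate 3. Mafg overlaps Sirt7 on the same strand by 124 bases, and reads there may count for either gene.

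The 5 genes that make and recycle glutathione had a median TPM of 4.07, beside 29.1 over the list. Gclm, the modifier subunit of glutamate-cysteine ligase, stood at TPM 18.69, 10.01 and 16.86. Gclc, the catalytic subunit of that rate-limiting enzyme, stood at 3.75, 2.50 and 2.72. The difference in log2(TPM + 1), Gclm minus Gclc, was 2.05, 1.65 and 2.26 (mean 1.99 ± 0.31, SD, n = 3). Summed over transcripts, TPM of the modifier thus exceeded that of the catalytic subunit in each library. Over protein-coding transcripts alone, a comparison chosen after the data were seen, the mean difference was 1.75 ± 0.11. The long coding transcript Gclm-201 by itself stood at TPM 2.09, 1.55 and 1.48, under Gclc. The shorter coding Gclm-206 and Gclm-203 each stood above Gclc in every library. Gss, which adds glycine to complete glutathione, had a mean TPM of 4.07 ± 0.49, and Gsr, which regenerates it with NADPH, 10.1 ± 2.22. The annotated spans of Gss and of Acss2, on the opposite strand, overlap over 22544 bases, introns included. The tables give Acss2 898, 990 and 1031 counts and Gss 557, 644 and 457, and the strand setting behind that division is not given in the sources used here.

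Slc7a11 encodes the cystine-glutamate exchanger that brings in the precursor of cysteine. The gene, on the minus strand of chr3:49892526-50443614, stood at TPM 4.86, 0.52 and 1.17 in replicates 1, 2 and 3. In CPM the values were 32.2, 7.05 and 11.9. Replicate 1 was far above the others, and the ratio of highest to lowest CPM, 4.57, was the largest of the list. Its coding transcript Slc7a11-201 stood at 19.9, 6.33 and 10.9 CPM, a ratio of 3.15. The retained-intron transcripts differed more, with 7.77, 0.509 and 0.578 CPM for Slc7a11-204 and 4.48, 0.214 and 0.433 for Slc7a11-202. Gm37498, an annotated locus on the same strand that overlaps Slc7a11 over 4002 bases, held 153, 13 and 10 counts, also high in replicate 1. Malat1 was high there too, and the part of unspliced or overlapping RNA in the replicate 1 value was not tested.

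In the thioredoxin system mRNAs of the cytosolic proteins exceeded those of their mitochondrial counterparts. Txn1, the cytosolic thioredoxin that reduces peroxiredoxins and other disulphides, stood at TPM 135, 122 and 170, and Txn2, the mitochondrial form, at 36.3, 31.4 and 33.4. The log2(TPM + 1) difference was 1.87, 1.92 and 2.31 (mean 2.04 ± 0.24, SD, n = 3). The reductases followed the same order. Txnrd1, the cytosolic reductase and an NRF2 target, stood at 49.7, 23.5 and 33.7, and mitochondrial Txnrd2 at 4.26, 3.60 and 4.48, a log2(TPM + 1) difference of 3.27, 2.42 and 2.66 (mean 2.78 ± 0.44). Srxn1, the sulfiredoxin that repairs over-oxidised peroxiredoxins, stood at 24.5, 13.9 and 22.3.

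Nqo1, the quinone reductase that serves as a textbook NRF2 target, was under TPM 1 in every library but was detected. It held 46, 59 and 42 counts and stood at TPM 0.48, 0.43 and 0.44. Those counts are above the floor of 3 counts, and the replicates did not differ beyond counting error (Poisson heterogeneity test, adjusted p = 0.405). Srxn1 minus Nqo1 in log2(TPM + 1) was 4.11, 3.38 and 4.02 (mean 3.83 ± 0.40, SD, n = 3), so these 2 targets stood far apart in every library.

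Peroxiredoxins, which reduce peroxides with a cysteine and thioredoxin, held the first and the third place. Prdx1, the main cytosolic form, on the plus strand of chr4:116685544-116700822, stood at TPM 420.0, 268 and 454, and Prdx5, found in mitochondria and peroxisomes, at 250.4, 283 and 338. Prdx5 was lowest in replicate 1 on both scales, with 228, 322 and 314 CPM. Prdx2, the cytosolic relative of Prdx1, stood at 79.64, 73.95 and 95.15, giving a log2(TPM + 1) difference of 2.38, 1.84 and 2.24 (mean 2.16 ± 0.28, SD, n = 3).

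Prdx3, the mitochondrial peroxiredoxin, stood at TPM 17.1, 14.6 and 17.2. Prdx5 exceeded it by 3.80, 4.19 and 4.22 in log2(TPM + 1) (mean 4.07 ± 0.23, SD, n = 3), the widest of the 12 pairs on this scale. That rank depended on the constant added to TPM. With 0.1 in place of 1, Srxn1 minus Nqo1 was wider, at a mean of 5.17 against 4.14 for Prdx5 minus Prdx3. Prdx4, the peroxiredoxin of the endoplasmic reticulum, stood at 24.1, 15.8 and 39.3, with replicate 3 high. Prdx6, which works with glutathione in place of thioredoxin, had a mean TPM of 19.7 ± 4.96. Prdx2 overlaps Junb by 351 bases on the opposite strand, and Junb held 30388 to 32037 counts in a library against 5280 to 7002 for Prdx2.

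Superoxide dismutases turn superoxide into hydrogen peroxide, which catalase splits. Mitochondrial Sod2, an inflammatory as well as an antioxidant gene, stood at TPM 268, 166 and 272, and cytosolic Sod1 at 77.3, 56.8 and 77.3. Over all transcripts Sod2 exceeded Sod1 by 1.78, 1.53 and 1.80 in log2(TPM + 1) (mean 1.70 ± 0.15, SD, n = 3). Over protein-coding transcripts alone, a comparison chosen after the data were seen, the difference reversed to -1.23, -1.67 and -1.45 (mean -1.45 ± 0.22), because coding Sod2-201 stood at TPM 32.4, 17.2 and 27.6. Cat had a mean TPM of 37.0 ± 8.56. Extracellular Sod3 was listed at TPM 0, with 0, 1 and 0 counts in replicates 1, 2 and 3, under the floor of 3 counts.

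Glutathione peroxidases reduce peroxides at the expense of glutathione. Gpx1, the general cytosolic form, stood at TPM 348, 252 and 291 and was second in the list. Gpx4, which protects membrane lipids and thereby opposes ferroptosis, stood at 176, 131 and 141. Their log2(TPM + 1) difference was 0.98, 0.94 and 1.04 (mean 0.99 ± 0.05, SD, n = 3), the least variable of the 12 pairs. Gpx3, a secreted form, had a mean TPM of 29.6 ± 9.53.

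Glrx, the glutaredoxin that removes glutathione from proteins, had a mean TPM of 135 ± 23.9. Conjugating enzymes were lower, with 67.1 ± 9.16 for Gstm1, 39.3 ± 7.19 for microsomal Mgst1 and 28.6 ± 8.39 for the omega-class Gsto1. Gstm1 belongs to a family of similar genes, and how shared reads were divided among them is an estimate.

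All 12 pair differences had 1 sign in 3 of 3 libraries over all transcripts. The exact two-sided sign-flip permutation test cannot go below p = 0.25 with 3 libraries, and each pair gave 0.25, with a Benjamini-Hochberg adjusted value of 0.25 over the 12 pairs. No pair therefore passes a threshold of 0.05, and the differences are described by their size beside their spread. The mean exceeded its SD in every pair, with the closest approach in Mafg minus Mafk.

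**Figure D2:**
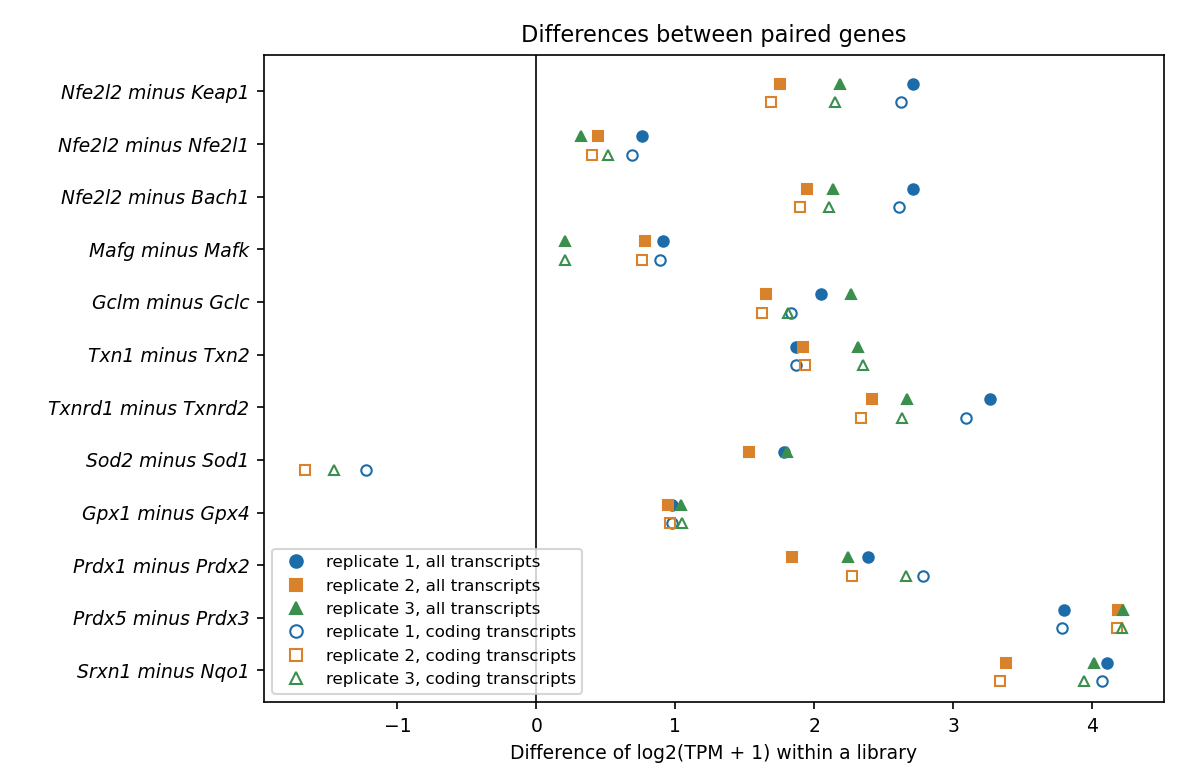
Differences of log2(TPM + 1) within each library for the 12 pairs, filled symbols for all transcripts of a gene and open symbols for its protein-coding transcripts. Sod2 minus Sod1 is the pair in which the open symbols (mean -1.45) fall on the other side of 0 from the filled ones (mean 1.70).

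Replicates differed by more than counting error in most genes of the list, as in most genes measured. At a mean count of at least 10, 33 members could be tested for heterogeneity between libraries by chi-square against Poisson counts, with 2 degrees of freedom and Benjamini-Hochberg adjustment over all 13827 genes tested. The test called 30 of the 33 at an adjusted p under 0.05, beside 70% of all genes tested and 76.9% of expressed protein-coding genes. Not called were Sod1 (adjusted p = 0.548), Nqo1 (0.405) and Txnrd2 (0.0731).

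Sizes were modest. The median ratio of highest to lowest CPM was 1.31 over the list, 1.27 over all genes tested and 1.19 over expressed protein-coding genes. A ratio of at least 1.5 was reached by 5 of 33 members, beside 29.2% of all genes tested and 10.7% of expressed protein-coding genes. A ratio of at least 2 was reached by 1 member, Slc7a11, beside 15.4 and 2.56%. The biological coefficient of variation, the spread left after counting error in an intercept-only edgeR model, had a median of 0.152 in the list, 0.164 over all genes tested and 0.134 over expressed protein-coding genes.

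The 5 widest members were Slc7a11, Prdx4, Mafk, Txnrd1 and Nfe2l2. Prdx4 was at 26.3, 23.0 and 42.3 CPM across the libraries (ratio 1.84), and Mafk at 28.9, 29.3 and 47.6 (ratio 1.65). Both were high in replicate 3 alone. Txnrd1 stood at 196, 125 and 134 CPM, a ratio of 1.57, high in replicate 1 alone, and the ratio of Nfe2l2, low in replicate 2 alone, was 1.57 too. Eid3, which overlaps Txnrd1 on the same strand over 1305 bases, held 295, 80 and 30 counts, also high in replicate 1, and its part was not tested. No 1 library set the widest members apart.

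Sod1 was the steadiest, at 47.1, 45.6 and 46.7 CPM (ratio 1.03). Gpx1 followed at 319, 325 and 308 (ratio 1.05) and Mafg at 85.05, 81.42 and 86.79 (ratio 1.07). Gpx1 and Mafg still differed beyond counting error at this depth, with adjusted p-values of 2.19e-05 and 0.0145 in the heterogeneity test.

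**Figure D3:**
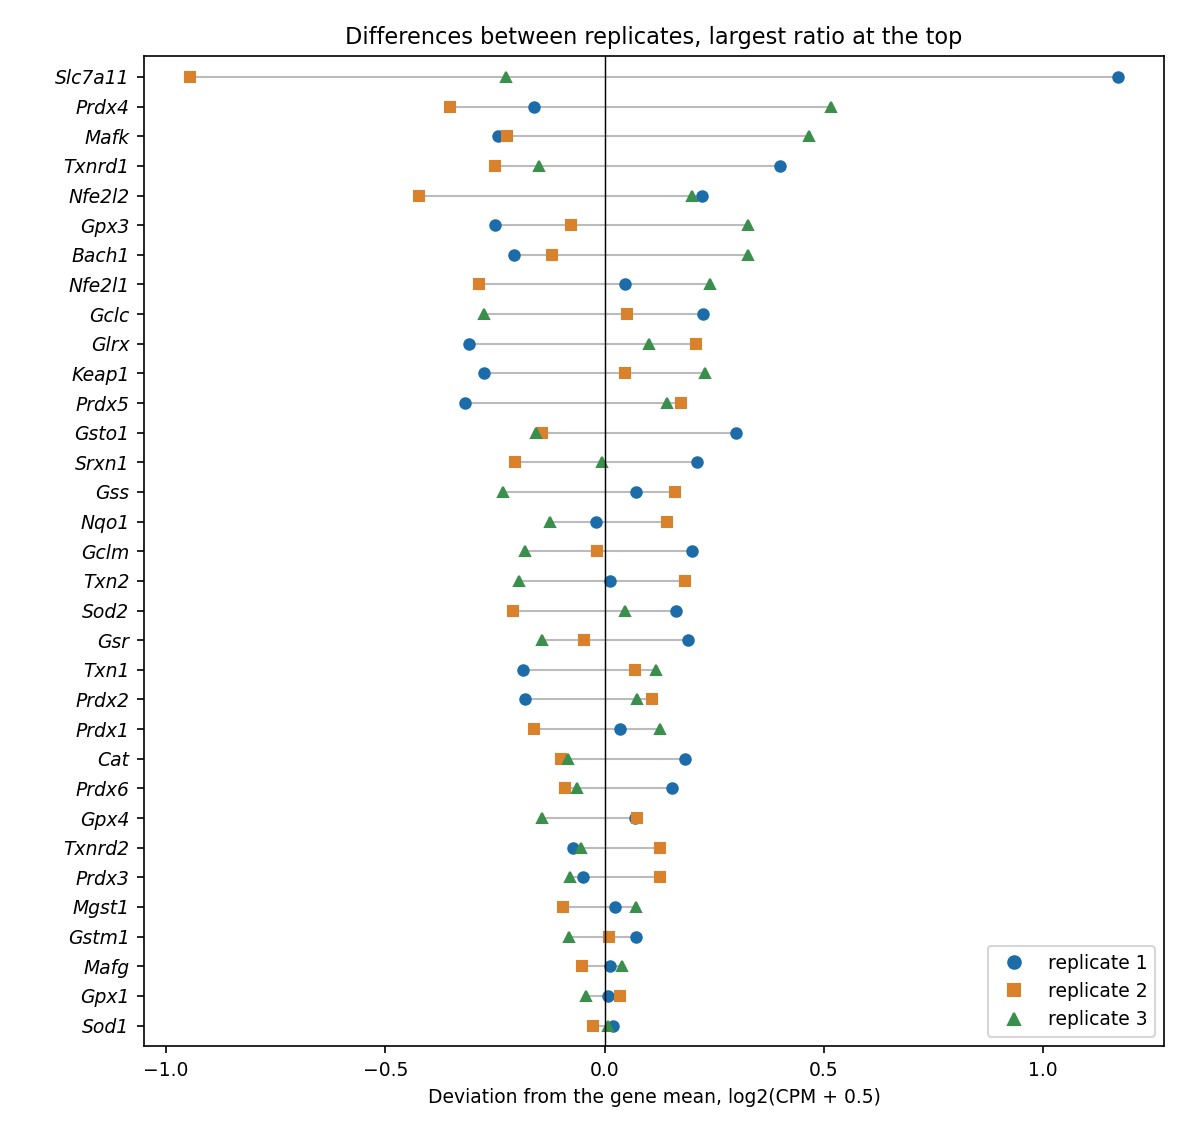
Deviation of each replicate from the gene's mean, in log2(CPM + 0.5) with TMM library sizes, for the 33 genes tested, ordered by the ratio of highest to lowest CPM. Slc7a11 spans the widest range (ratio 4.57) and Sod1 the narrowest (1.03), and the replicate that stands highest changes from gene to gene.

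**Figure D4:**
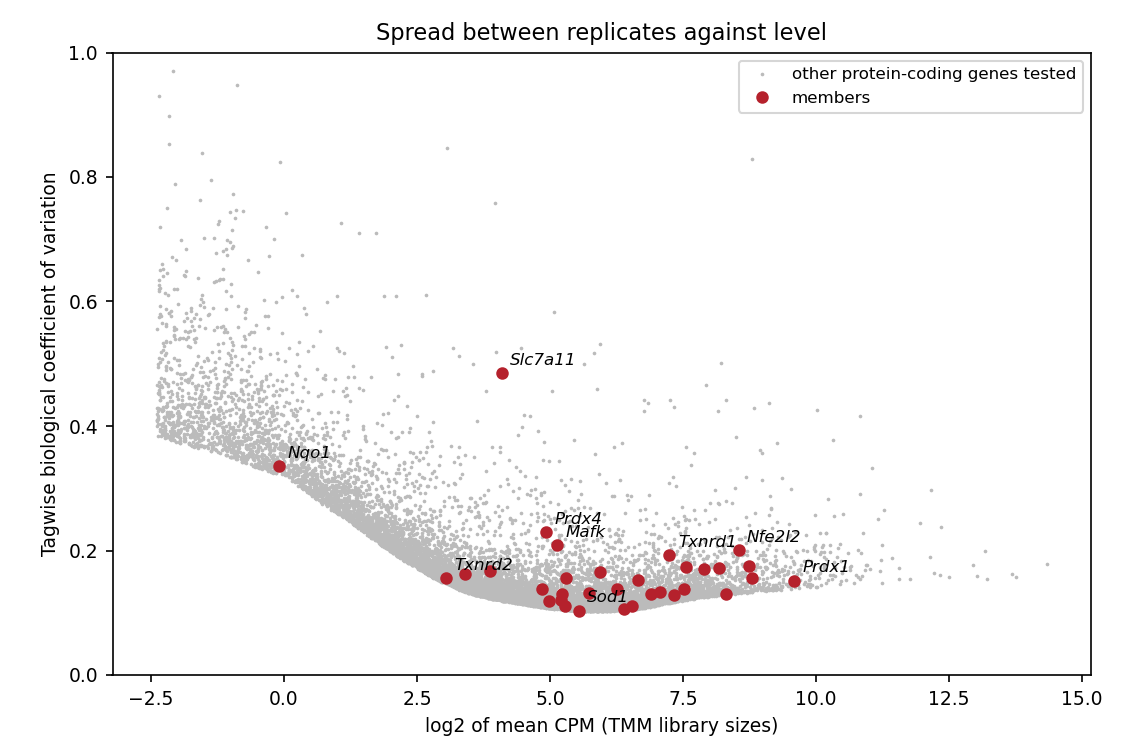
Biological coefficient of variation against log2 of mean CPM for protein-coding genes tested, with the 33 members in red and 9 of 11660 genes above the axis not shown. Slc7a11 at 0.485 stands above the mass of genes of its level, and Nqo1 at 0.336 stands among genes of low counts. The other members run from 0.104 (Sod1) to 0.230 (Prdx4), with Mafk at 0.209 and Nfe2l2 at 0.201, beside a median of 0.134 over expressed protein-coding genes.

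The replicate that stood highest was counted by role. Over the list, 13, 10 and 10 of 33 members were highest in replicates 1, 2 and 3, beside 34.4, 31.4 and 34.2% of all genes tested and 25.9, 34.6 and 39.5% of expressed protein-coding genes. Lowest in replicates 1, 2 and 3 were 9, 13 and 11 members, beside 32.2, 30.9 and 36.8% of all genes tested and 38.7, 31.4 and 29.9% of expressed protein-coding genes. Of 6 regulators, 5 were highest in replicate 3 (Nfe2l1, Keap1, Bach1, Mafg and Mafk), and Nfe2l2 was the exception. On deposited TPM 4 of the 6 were highest there, beside 51.6% of all genes, and on TPM rescaled to protein-coding genes 4 of the 6, beside 25%. Of 5 genes of glutathione supply, 4 were highest in replicate 1 and 4 were lowest in replicate 3. With rescaled TPM those counts were 4 and 3, beside 43.4 and 45.4% of protein-coding genes. With deposited TPM they were 5 and 0, beside 44.4 and 12.5% of all genes. In CPM, Sod1, Sod2 and Cat were all 3 highest in replicate 1 and lowest in replicate 2, though Sod1 did not vary beyond counting error. Rescaled TPM kept all 3 highest in replicate 1 but put 1 lowest in replicate 2 and 2 in replicate 3. On deposited TPM 1 of the 3 was highest in replicate 1 and 2 in replicate 3, beside 44.4 and 51.6% of all genes. All 3 were lowest in replicate 2 on that scale, as were 80% of all genes. These role counts hold few genes and have no test. The part in them of Malat1 and mitochondrial counts, highest in replicate 1 and lowest in replicate 3, was not tested.

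Most expressed members had over 95% of their TPM on protein-coding transcripts, and 9 had less. Below 90% stood Sod2 (10.9%), Prdx6 (24.3%), Gsto1 (73.4%), Prdx2 (74.6%), Gstm1 (77.0%) and Gclm (84.8%). The median coding share of a gene's TPM was 99.3% over 31 expressed members and 97.3% over expressed protein-coding genes. In the first transcript table a leading transcript that is not protein coding was found in 2 of the 31, Sod2 and Prdx6, beside 5.03% of expressed protein-coding genes. In Sod2 the processed transcript Sod2-207 (1138 bases) held 50.7 ± 1.36% of TPM (SD, n = 3), the retained-intron Sod2-204 (644 bases) 28.8 ± 2.59% and coding Sod2-201 (5861 bases) 10.9 ± 1.08%. By expected counts, which do not divide by length, Sod2-201 held 49.1%, the largest share. The second transcript table gave 49.3% for Sod2-207 and 8.79% for Sod2-201, close to the first.

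In Prdx6 the transcript Prdx6-208, annotated as a target of nonsense-mediated decay, held 66.4 ± 1.93% of TPM, and 65.7% in the second table. Coding transcripts of Prdx6 held 20.8, 27.6 and 24.7% in replicates 1, 2 and 3, so all 3 libraries were low. Short reads that several transcripts share are divided by estimate, and no other assay of these transcripts was used here.

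**Figure D5:**
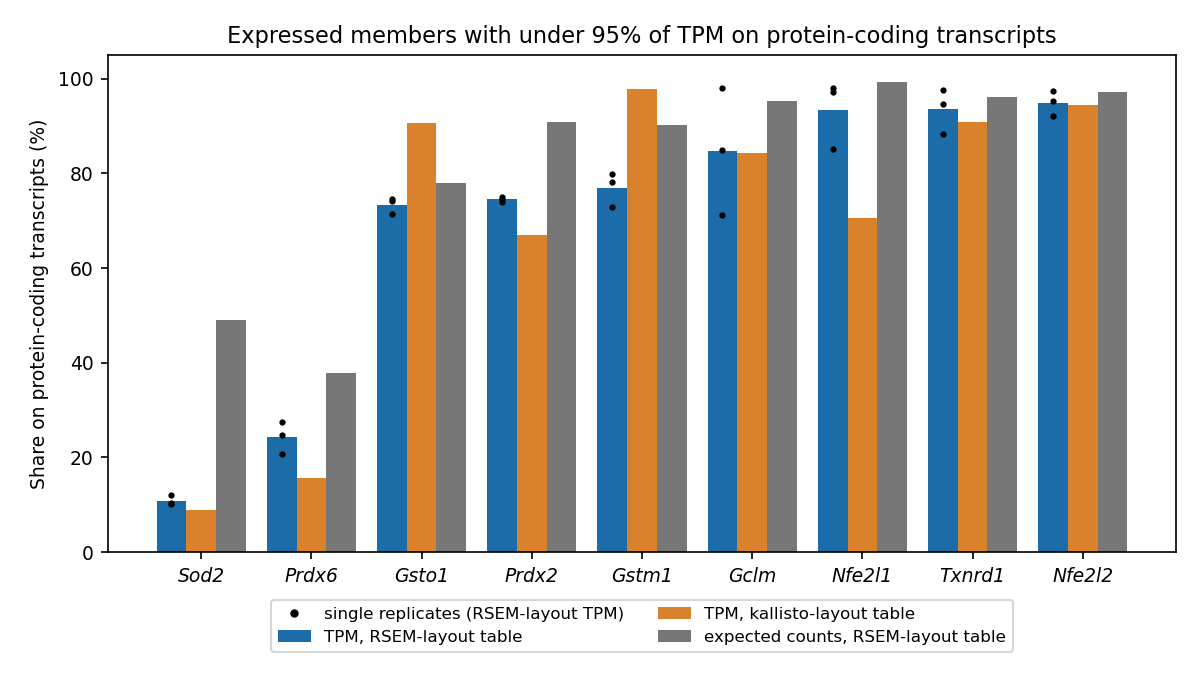
Share of a gene's RNA on protein-coding transcripts for the 9 expressed members below 95% of TPM, as means of 3 replicates by TPM in the first and second transcript tables and by expected counts, with single replicates as dots for the first. Sod2 (10.9% by TPM, 49.1% by counts) and Prdx6 (24.3%) stand apart, and Gsto1, Gstm1 and Nfe2l1 differ between the tables.

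The leading transcript was the same in both tables for 29 of 31 expressed members, beside 91.3% of expressed protein-coding genes. Among the 29 members with more than 1 transcript it was the same for 27, beside 90.6%. The exceptions were Nfe2l1 and Prdx5. Nfe2l1 was led by coding Nfe2l1-211 (33.6%) in the first table. In the second it was led by Nfe2l1-207 (26.2%), a processed transcript of 582 bases that held 4.29% in the first. Prdx5 was led by Prdx5-203 (38.9%) in the first and by Prdx5-201 (52.9%) in the second.

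A leading share under 60% was found in 8 members and one over 90% in 14. Beside Sod2, Nfe2l1 and Prdx5, the 8 were Keap1, Gclm, Prdx1, Prdx2 and Mgst1. Keap1-205 held 56.1% and Keap1-201 36.6%, both coding, and Prdx1-204 held 56.5% and the shorter coding Prdx1-205 41.0%. Gclm-206 and Gclm-203, of 1002 and 1088 bases, held 41.9 and 30.8% of TPM, while the longer Gclm-201 (5589 bases) held 11.8% of TPM and 48.6% of counts. In Prdx2 the coding Prdx2-201 led with 37.2%, and the retained-intron Prdx2-205 held 25.3 ± 0.528%. Mgst1-201 led with 38.6% and Mgst1-207 followed with 37.4%, a difference smaller than the SD of either share (4.47 and 3.97).

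Around the 34 genes stood 54 other genes of the pathway, of which 37 were expressed, beside 17.2% of all genes. That count depended on the limit and the scale, with 25 at a limit of TPM 5 and 45 on TPM rescaled to protein-coding genes. Of 47 tested, 36 varied beyond counting error, a share near the 70% of all genes tested and 76.9% of expressed protein-coding genes. The heme, iron and autophagy targets held the highest and were all 6 expressed. Fth1, the ferritin heavy chain that stores iron safely, stood at TPM 20069, 17972 and 18226, the top of that group, and Blvra, a biliverdin reductase, was its lowest at a mean of 40.4 ± 7.02. Hmox1, the haem oxygenase that both NRF2 and BACH1 govern, stood at TPM 112, 119 and 118. In CPM, the scale for comparing replicates, Hmox1 was at 213, 302 and 220, high in replicate 2 with a ratio of 1.41. Sqstm1, the autophagy receptor p62 that can take KEAP1 away from NRF2, stood at 1430, 701 and 1457 CPM, low in replicate 2 with a ratio of 2.08, as Nfe2l2 was.

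Enzymes that supply NADPH were expressed in 5 of 6 cases, led by Pgd of the pentose phosphate pathway at a mean TPM of 61.1 ± 9.91, with malic enzyme Me1 lowest at 1.23 ± 0.431. Other thiol enzymes were expressed in 9 of 10 cases, from Msrb1, a methionine sulfoxide reductase, at 81.0 ± 17.9 to Txnrd3 at 0.953 ± 0.23. Txnip, which binds and inhibits thioredoxin, stood at 104.9, 186.1 and 92.29 CPM, high in replicate 2 with a ratio of 2.02.

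Other glutathione peroxidases and transferases were mostly under the limit, with 5 of 16 expressed. Gstm4 led at a mean TPM of 5.01 ± 0.954, Gstp1 stood at 1.56, 1.91 and 2.12, and Gpx2, Gpx8, Gsta1 and Gsta2 held 0 counts in every library. Other detoxification targets were expressed in 7 of 8 cases, led by Ugdh at 12.3 ± 1.19, with Aldh3a1 at 0 counts. Among other regulators 5 of 8 were expressed, from Rbx1, a subunit of the CUL3 ligase, at 47.8 ± 8.61 to Bach2 at 0.103 ± 0.0569.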

How the data were processed

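Cytosolic RNA of 3 libraries of 1 group was analysed. Expected counts per gene and transcript were deposited by the authors without normalisation, and TPM was deposited by the authors over all indexed features. A posterior SD of each count, a score of how uncertain the division of shared reads is, was deposited in the gene tables and was at most 0.457% of the count of a listed gene (Gpx4). The second transcript table holds estimated counts and TPM deposited by the authors. Assembly mm10 and annotation GENCODE M21 are named in the deposited notes. The layouts are those of RSEM and kallisto, but which programs made the files, in which versions and with which strand setting, is not given in the sources used here.

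Of 81881 entries, 55536 were genes. The 26345 entries naming no gene, with 0.0785, 0.0521 and 0.0251% of counts, stayed out. Counts were rounded to whole numbers. TMM sizes and dispersions came from edgeR 4.0.16 (R 4.3.3) and DESeq2 1.42.0 was an alternative. Other values came from Python 3.11.15 with pandas 2.3.3, numpy 2.4.6 and scipy 1.17.1, and drawings from matplotlib 3.10.9. Limits were TPM 1 for expression, a mean count of 10 for tests and an adjusted p of 0.05, with pseudocounts of 1 for TPM and 0.5 for CPM. In simulated counts for 13827 genes the heterogeneity test found 50 of 50 genes changed 4-fold in 1 library and 26 of 50 changed 1.2-fold, with 5 unchanged genes called.

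All 34 listed genes are named. Values in every library are given for the 3 highest and 3 lowest by TPM, the genes of the 12 pairs, the 5 widest and 3 steadiest by CPM ratio and those under TPM 1. Transcripts are given where the leading one held under 60% of TPM, was not coding or differed between tables. Pathway genes named are the highest and lowest measured of each list, plus Hmox1, Gstp1, Txnip and Sqstm1. Members, lists and tests were chosen with earlier results of these data known. Alternatives were other scalings, filters, pseudocounts, the second transcript table, and leaving out each replicate.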

Additional observations from a re-analysis of the deposited data

How the results depend on the processing

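Of 128 results under an alternative, 122 were classed as the same, 5 as moved and 1 as reversed. Counts have no direction or threshold and could shift within the class of the same. The 31 members expressed became 28 at a limit of TPM 5, 30 with the second transcript table and 33 on TPM rescaled to protein-coding genes. The 37 pathway genes expressed became 25 at a limit of TPM 5, 29 with the second transcript table and 45 on TPM rescaled to protein-coding genes. The number of members highest in replicate 1 went from 13 to 17 on deposited TPM and to 18 on rescaled TPM. The number of members highest in replicate 2 fell from 10 to 0 on deposited TPM, the scale on which 80% of all genes tested were lowest there, and the number highest in replicate 3 went from 10 to 16 on deposited TPM and to 6 on TPM rescaled to protein-coding genes. The median coefficient of variation ranged from 0.133 to 0.161 on leaving out 1 replicate in turn, lowest without replicate 3. Leaving out 1 replicate gave 24 to 26 members varying beyond counting error, beside 49.8 to 53.8% of all genes, against 30 and 70% with all 3. Over protein-coding transcripts alone, an alternative chosen after seeing the data, Sod2 minus Sod1 reversed to -1.45 (p = 0.25, exact sign-flip test), and the Slc7a11 ratio of highest to lowest CPM fell from 4.57 to 3.15. The other 83 of 84 pair differences under an alternative kept their sign. No paired analysis was possible because there is 1 group. Leaving out a replicate was not run for the counts of members highest in a replicate, which rest on the order of all 3. Counts were low for Nqo1 (42 to 59) and Sod3 (at most 1), and Slc7a11 had the widest spread of the members (coefficient of variation 0.485).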
